A study of Mus musculus with 14 samples.

Results

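The genes described are 33 mouse genes of meiotic entry and meiotic prophase, chosen by name for their roles in meiosis. Every probe set whose single annotated symbol is one of these names was taken. Of the 33 genes, 30 had a probe set, out of 18193 genes with one on the array, and all 30 passed the filter on dim probe sets. Their 35 probe sets include 3 for Trip13 and a pair each for Dmc1, Psmc3ip and Msh5. Rad21l, Hfm1 and Rnf212 were not analysed here. Whole fetal ovaries were hybridised to 14 Affymetrix arrays in 4 groups. They were 4 arrays of Coup-tfII knockout ovaries at E16.5, 4 of control ovaries at E16.5, 3 of Coup-tfII knockout ovaries at E14.5 and 3 of control ovaries at E14.5. All came from embryos of a mixed C57BL/6, Swiss Webster and B6129SF1/J background, and all dams had received tamoxifen at E11.5 and again at E12.5 (embryonic days), at 2 mg per 10 g of weight. In the knockouts, tamoxifen activates a WT1-CreERT2 recombinase that cuts floxed COUP-TFII (gene symbol Nr2f2). The genotype of the controls beyond the word control is not stated in the labels, nor is the number of ovaries that went into an array. WT1 is a transcription factor of somatic cells of the gonad, whereas the 33 genes are known for their work in germ cells. The labels call the arrays biological replicates without naming litters, so the p-values measure the spread between these samples.

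In the fetal ovary, germ cells stop dividing by mitosis and enter meiosis around mid gestation, in answer to retinoic acid and BMP signals from somatic cells. STRA8 is the transcription factor that retinoic acid induces at this step, and together with MEIOSIN it switches on many meiotic genes, while the RNA-binding partners MEIOC and YTHDC2 hold the cells in the meiotic programme. Cells then pass through leptotene, zygotene and pachytene of the first prophase. Chromosomes fold onto axes built of meiotic cohesin and HORMA-domain proteins, SPO11 cuts the DNA, DMC1 carries the broken ends to the homologous chromosome, and the synaptonemal complex zips the homologs together. The mismatch-repair relatives MSH4, MSH5 and MLH3 then act on the crossing-over intermediates. Female germ cells do all of this before birth, and they are only some of the cells of a whole ovary, so fewer germ cells and less RNA per germ cell cannot be told apart in these arrays.

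The start regions of 5 members are printed, because they stand for members that fell between the stages (Stra8, M1ap and Tex12), for a member that carries 3 of the 4 motifs searched (Sycp1) and for a member that rose (Mlh3). Each is the 300 bases from 250 before to 50 after a RefSeq start of the gene on GRCm38.p6, read 5′ to 3′ along the gene. That start need not be the outermost: the RefSeq span of Stra8 begins at 34920163, before its printed window. Capitals mark matches, on either strand, to CNCCTCAG (the sequence reported for STRA8 and MEIOSIN), TCCCGC (an E2F core), CACGTG (an E-box) or AGGTCA (a half-site of nuclear receptors such as the retinoic acid receptors and COUP-TFII). None of the matches in the 5 sequences overlaps another.
Stra8, chr6:34920698-34920997, plus strand: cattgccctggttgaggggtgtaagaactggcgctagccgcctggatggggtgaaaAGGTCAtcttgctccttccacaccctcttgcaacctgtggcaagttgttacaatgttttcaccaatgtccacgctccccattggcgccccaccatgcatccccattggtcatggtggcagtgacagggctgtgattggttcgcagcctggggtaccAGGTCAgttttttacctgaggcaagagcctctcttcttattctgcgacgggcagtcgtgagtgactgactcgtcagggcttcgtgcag
M1ap, chr6:82946672-82946971, plus strand: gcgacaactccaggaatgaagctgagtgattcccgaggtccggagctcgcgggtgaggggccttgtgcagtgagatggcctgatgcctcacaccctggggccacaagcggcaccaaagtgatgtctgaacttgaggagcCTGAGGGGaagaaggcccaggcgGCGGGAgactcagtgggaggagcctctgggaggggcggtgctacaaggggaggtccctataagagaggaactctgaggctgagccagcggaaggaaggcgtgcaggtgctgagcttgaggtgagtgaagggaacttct
Tex12, chr9:50561219-50561518, minus strand: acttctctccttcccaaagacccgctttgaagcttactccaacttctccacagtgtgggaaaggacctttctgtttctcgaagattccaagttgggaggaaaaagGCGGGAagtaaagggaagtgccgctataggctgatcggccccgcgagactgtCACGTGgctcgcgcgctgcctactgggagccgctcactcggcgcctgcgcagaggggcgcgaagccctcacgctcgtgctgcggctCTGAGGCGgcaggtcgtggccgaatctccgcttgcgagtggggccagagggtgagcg
Sycp1, chr3:102936051-102936350, minus strand: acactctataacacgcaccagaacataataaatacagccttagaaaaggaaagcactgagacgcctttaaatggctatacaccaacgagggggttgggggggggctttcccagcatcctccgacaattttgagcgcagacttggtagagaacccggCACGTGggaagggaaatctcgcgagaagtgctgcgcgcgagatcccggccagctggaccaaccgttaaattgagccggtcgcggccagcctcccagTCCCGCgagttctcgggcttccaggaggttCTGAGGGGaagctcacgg
Mlh3, chr12:85270542-85270841, minus strand: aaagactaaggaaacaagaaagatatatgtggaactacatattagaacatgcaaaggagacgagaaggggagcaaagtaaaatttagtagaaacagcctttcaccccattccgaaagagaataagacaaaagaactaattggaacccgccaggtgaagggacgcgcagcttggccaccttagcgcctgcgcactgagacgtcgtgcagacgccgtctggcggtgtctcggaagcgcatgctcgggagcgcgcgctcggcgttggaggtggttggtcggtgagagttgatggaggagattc
Of the 33 genes, 29 have a start region that was searched, including the 3 without a probe set. Spo11, Tex11 and Tex15 had no entry, and Ythdc2 was not searched. CNCCTCAG was in a start region of 8 of the 29 genes, against 9.12% of the 27025 genes with a start region. The 8 are Hfm1, Hormad2, M1ap, Msh5, Prdm9, Syce2, Sycp1 and Tex12. Among the searched members that fell in controls between the stages, 6 of 19 held it, and among those that rose, 0 of 6. TCCCGC was found for 19 of the 29 genes, against 22.05% of all genes. CACGTG was found for 7, against 8.09%, and AGGTCA for 5, against 18.13%. Of the searched members that fell and those that rose, TCCCGC was in 13 of 19 and 3 of 6. In the same order CACGTG was in 5 of 19 and 0 of 6, and AGGTCA in 4 of 19 and 1 of 6. None of these splits was tested. Counted by start region in place of gene, the shares over all 32851 regions were 7.94% for CNCCTCAG, 19.98% for TCCCGC, 7.15% for CACGTG and 16.26% for AGGTCA. The Stra8 region held AGGTCA in both printed places, 194 and 38 bases before the start used here, and none of the other motifs. The Mlh3 region held no match to any of the 4. Member start regions are rich in G and C, with a median of 60.3% over 34 regions against 52.7% over all. A match describes letters in this window only.

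Every array had been scaled by its authors to the same trimmed mean of 500. Median signal was 118 to 136.6 per array at E16.5 and 90.3 to 102.5 at E14.5. Nr2f2, the targeted gene, read on its brightest probe set, had signals of 2462, 2261, 3359 and 2053 in E16.5 knockout ovaries and 3819, 4950.3, 4309 and 4250.4 in E16.5 control ovaries, with no overlap. At E14.5, this probe set had 155, 252 and 267 in knockout ovaries and 217, 493 and 422 in control ovaries, so control replicate 1 lay within the knockout range. Whether the label of that array is right was not tested. Another Nr2f2 probe set had 302, 270, 409 and 303 in E16.5 knockouts and 1984, 1886, 1797 and 2227 in controls, a wider gap. At E14.5 it had 34.6, 65.6 and 79.1 in knockouts and 19.3, 350 and 207 in controls. A further one had 219, 161 and 259 in E14.5 knockouts and 268, 350 and 273 in controls, without overlap. A dim one was not lower in E16.5 knockouts (96.7, 101, 128 and 125 against 89.6, 84.9, 78.8 and 112). Another had 94.4, 117, 169 and 85.8 in E16.5 knockouts and 233, 290, 221 and 201 in E16.5 controls. At E14.5 it had 280, 352 and 438 in knockouts and 362, 609 and 733 in controls. In controls it was thus dimmer at E16.5 than at E14.5, whereas the brightest probe set was brighter. The last had 23.9, 6.19, 15.5 and 18.4 in E16.5 knockouts and 95.2, 84.6, 110 and 79.9 in controls. The general germ cell markers Ddx4 and Dazl were bright in every group. Foxl2, a transcription factor of pregranulosa cells, had 1475, 1684, 1243 and 1298 in knockouts and 2672, 2527, 2580.0 and 2319 in controls at E16.5, without overlap, a log2 difference of -0.83 ± 0.20 (limma adjusted p = 0.0504). At E14.5, Foxl2 had 1439, 2011 and 1152 in knockouts and 1274, 2542 and 2695 in controls (-0.46 ± 0.23, limma adjusted p = 0.611). Sertoli cell markers, 6 of 6 with a probe set, summed to 890 to 1006 in knockouts and 644 to 843 in controls at E16.5, and to 581 to 842 in knockouts and 476 to 515 in controls at E14.5, without overlap at either stage. Of these, Amh was at or below 12.46 in every array and Sox9 reached 368, and none of the 4 tested passed between genotypes (limma). Adrenal markers, 5 of 5 with a probe set, summed to 779.6 to 1109 in knockouts and 315 to 423 in controls at E16.5, and to 736 to 998 in knockouts and 385 to 683 in controls at E14.5, again without overlap. Of the 3 tested, Hao2 and Mc2r were higher in E16.5 knockouts (limma, adjusted p under 0.05), where 1.42% of all tested genes passed. At E14.5 0 of the 3 passed, where 0.0403% did. The 11 pregranulosa markers summed to 27062 to 32186 in knockouts and 33091 to 35735 in controls at E16.5, without overlap, and overlapped at E14.5. Singly, 7 of the 11 had a negative and 4 a positive log2 difference at each stage. The median was -0.14 at each stage and 0 passed (limma). At E16.5 they ran from -0.83, that of Foxl2, to 0.39, so the list did not move as 1. The part of these cell types in the member values was not tested.

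Between E14.5 and E16.5 most of the meiotic genes lost signal, in both genotypes. In knockout ovaries 22 of the 30 members were lower at E16.5 than at E14.5 and 5 were higher (limma, adjusted p under 0.05), where 33.8% of all 12406 tested genes were lower and 27% higher. In control ovaries 23 were lower and 6 were higher, where 35.9% of all tested genes were lower and 28.5% higher. The median log2 change of the 30 members was -1.011 in knockouts, against -0.077 for all genes, and -1.33 in controls, against -0.087 for all genes. The 6 that rose in controls were Syce3, Trip13, Psmc3ip, Mnd1, Mlh3 and Mns1. Of the members, Rec8, Syce3 and Prdm9 did not pass in knockouts and Sycp1 did not pass in controls. The stages were hybridised with different 3′ to 5′ Gapdh differences (log2 of 0.94 to 1.82 at E16.5 and -0.42 to -0.06 at E14.5). The bioB hybridization control also separated them, with signals of 3838 to 17217 at E16.5 and 1417 to 1630 at E14.5. Stage and these measures cannot be told apart. Centring each array on its median moved the median of all genes to -0.405 in knockouts and -0.428 in controls, so a fall or a rise below is given on the authors' scaling, and each member whose call depends on it is named.

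**Figure D1:**
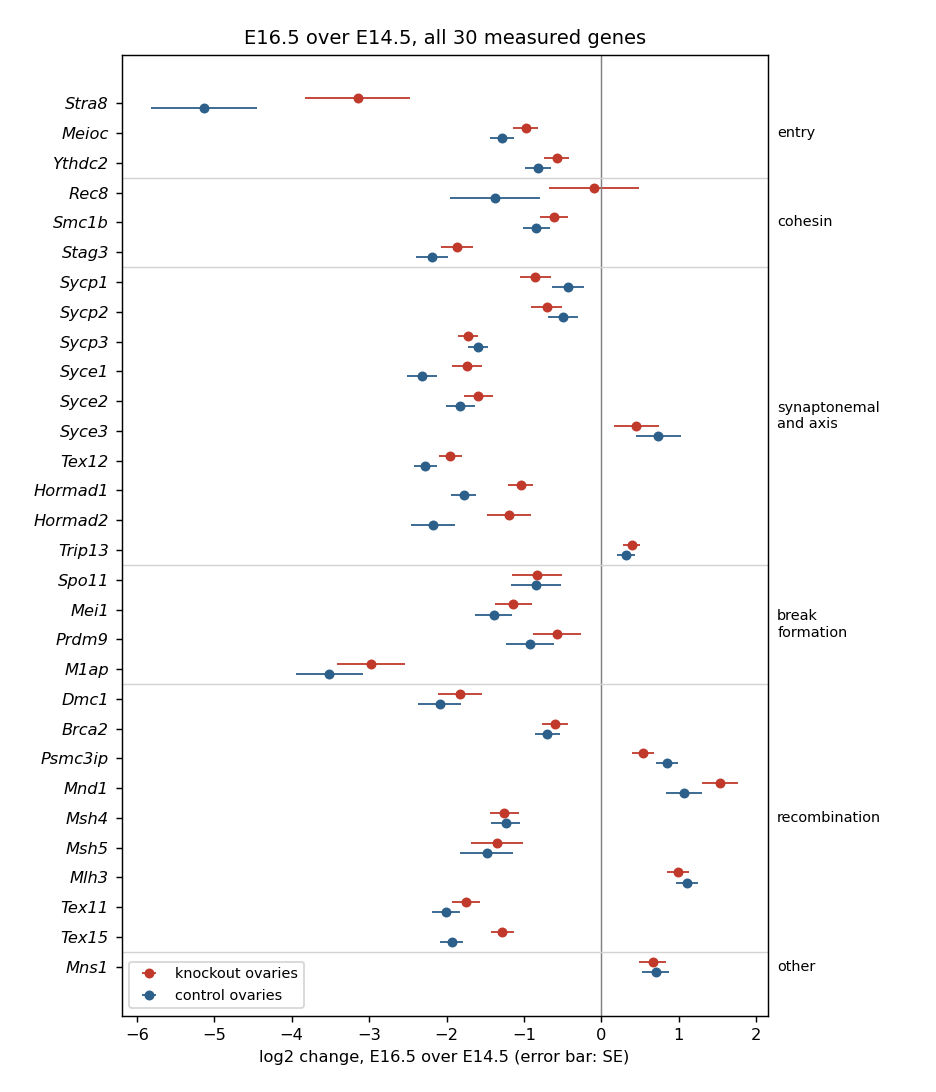
Log2 change of signal, E16.5 against E14.5, for the 30 measured members grouped by role, in knockout and in control ovaries; points are limma estimates and bars are standard errors. Most points lie left of 0 in both genotypes, Stra8 lies farthest left (-3.15 in knockouts and -5.13 in controls), and Mnd1 and Mlh3 lie farthest right.

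All 3 entry genes fell in both genotypes. Stra8 had signals of 178, 78.0, 60.7 and 701 in E16.5 knockout ovaries and 139, 158, 99.8 and 298 in E16.5 control ovaries. At E14.5, Stra8 had 1171, 566 and 5679 in knockout ovaries and 8166, 5351 and 5443 in control ovaries. Stra8 was bright in E14.5 controls and in E14.5 knockout replicate 3 and far dimmer in all E16.5 arrays, whose brightest (knockout replicate 4) was above E14.5 knockout replicate 2. For Stra8 the log2 change between the stages was -3.15 ± 0.68 in knockouts (limma adjusted p = 0.000712) and -5.13 ± 0.68 in controls (adjusted p = 4.40e-06). Meioc, the germ-cell-specific partner of YTHDC2, is needed to carry cells on into prophase. Meioc had signals of 2044, 2523, 2707 and 2959 in E16.5 knockout ovaries and 2372, 2532, 2117 and 2797 in E16.5 control ovaries. At E14.5, Meioc had 5358, 4065 and 5788 in knockout ovaries and 5558, 5107 and 7451 in control ovaries. No E16.5 array of Meioc reached the dimmest E14.5 array, and the genotypes overlapped at both stages. For Meioc the log2 change between the stages was -0.98 ± 0.16 in knockouts (limma adjusted p = 3.93e-05) and -1.28 ± 0.16 in controls (adjusted p = 1.71e-06). Ythdc2 encodes the RNA helicase of the same complex. Ythdc2 had signals of 1028, 1624, 1213 and 1192 in E16.5 knockout ovaries and 1206, 1454, 1215 and 1222 in E16.5 control ovaries. At E14.5, Ythdc2 had 2279, 1424 and 2011 in knockout ovaries and 2343, 1972 and 2458 in control ovaries. The control arrays of Ythdc2 did not overlap between stages, and the knockout arrays did. For Ythdc2 the log2 change between the stages was -0.58 ± 0.16 in knockouts (limma adjusted p = 0.00580) and -0.82 ± 0.16 in controls (adjusted p = 0.000338). With the E16.5 knockout arrays 1 and 4 left out, an alternative chosen after seeing the data, the knockout change of Ythdc2 was -0.41 (limma adjusted p = 0.0699).

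The meiotic cohesin genes encode the subunits that replace mitotic ones in the ring holding sister chromatids: REC8 is the kleisin, SMC1B a core arm and STAG3 the accessory subunit. In controls all 3 fell, and in knockouts Smc1b and Stag3 fell. Rec8 had signals of 989.8, 188, 201 and 369.8 in E16.5 knockout ovaries and 439, 229, 343 and 179.5 in E16.5 control ovaries. At E14.5, Rec8 had 199.5, 185 and 1306 in knockout ovaries and 1109, 665 and 582 in control ovaries. Rec8 varied widely among E16.5 knockout arrays and among E14.5 knockout arrays, where replicate 3 was above every control and the other pair below every control. For Rec8 the log2 change between the stages was -0.09 ± 0.58 in knockouts (limma adjusted p = 0.899) and -1.37 ± 0.58 in controls (adjusted p = 0.0471). The control call of Rec8 was lost without any 1 of 6 of the 7 control arrays, all but E16.5 replicate 1, with log2 changes of -1.56 to -1.10 and adjusted p of 0.0554 to 0.168. Smc1b had signals of 4722, 7222, 5874 and 8521 in E16.5 knockout ovaries and 5867, 5399, 5838 and 8189 in E16.5 control ovaries. At E14.5, Smc1b had 11714, 9010.3 and 9013 in knockout ovaries and 11677, 9818 and 12150.0 in control ovaries. For Smc1b every E16.5 array lay below every E14.5 array. For Smc1b the log2 change between the stages was -0.61 ± 0.18 in knockouts (limma adjusted p = 0.00634) and -0.84 ± 0.18 in controls (adjusted p = 0.000495). Quantile normalization took the knockout change of Smc1b to -0.24 (limma adjusted p = 0.241). Stag3 had signals of 1324, 1373, 1094 and 2296 in E16.5 knockout ovaries and 1263, 1021, 1125 and 1713 in E16.5 control ovaries. At E14.5, Stag3 had 5599.9, 5626 and 4925 in knockout ovaries and 5231, 5309 and 6946 in control ovaries. Stag3 was separated by stage without overlap in both genotypes, and replicate 4 was the brightest E16.5 array of each. For Stag3 the log2 change between the stages was -1.87 ± 0.21 in knockouts (limma adjusted p = 6.28e-07) and -2.19 ± 0.21 in controls (adjusted p = 7.91e-08). 

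Among the 10 genes of the synaptonemal complex and chromosome axis, 8 fell and 1 rose in knockouts, and 7 fell and 2 rose in controls. Sycp1 encodes the transverse filament that spans the homologs. Sycp1 had signals of 4895, 5361, 5134 and 5147 in E16.5 knockout ovaries and 4562, 4887, 5022 and 5301 in E16.5 control ovaries. At E14.5, Sycp1 had 11994, 10872 and 6120.3 in knockout ovaries and 4496, 7675 and 8577 in control ovaries. Control replicate 1 at E14.5 was below every E16.5 array of Sycp1, while E14.5 knockout replicates 1 and 2 were above all E14.5 controls. For Sycp1 the log2 change between the stages was -0.85 ± 0.20 in knockouts (limma adjusted p = 0.00167) and -0.43 ± 0.20 in controls (adjusted p = 0.0737). Without E14.5 control replicate 1 the control change of Sycp1 was -0.72 (limma adjusted p = 0.00373), and with median centring it was -0.77 (limma adjusted p = 0.00258). SYCP2 and SYCP3 form the lateral elements. Sycp2 had signals of 2928, 4409, 3332 and 3958 in E16.5 knockout ovaries and 4256, 3988, 3927 and 5312 in E16.5 control ovaries. At E14.5, Sycp2 had 8734, 5529 and 4276 in knockout ovaries and 5956, 5389 and 7180.3 in control ovaries. E14.5 knockout replicate 3 of Sycp2 lay within the E16.5 range, while the control arrays of the stages did not overlap. For Sycp2 the log2 change between the stages was -0.71 ± 0.20 in knockouts (limma adjusted p = 0.00468) and -0.50 ± 0.20 in controls (adjusted p = 0.0339). The control call of Sycp2 was lost without E14.5 control replicate 1 or 3 or E16.5 control replicate 1, 2 or 3, with log2 changes of -0.52 to -0.38 and adjusted p of 0.0610 to 0.147, and with quantile normalization (-0.23, limma adjusted p = 0.288). Sycp3 averaged 6863 ± 762 in E16.5 knockouts and 6906 ± 975 in E16.5 controls (SD, n = 4 each), and 22610.3 ± 2420.4 in E14.5 knockouts and 20856 ± 3227 in E14.5 controls (SD, n = 3 each). For Sycp3 the log2 change between the stages was -1.72 ± 0.13 in knockouts (limma adjusted p = 8.18e-09) and -1.59 ± 0.13 in controls (adjusted p = 1.51e-08). Syce1, Syce2, Syce3 and Tex12 encode the central element. Syce1 had signals of 1144, 1256, 1079.8 and 2014 in E16.5 knockout ovaries and 1079, 1040.4, 1239 and 1611 in E16.5 control ovaries. At E14.5, Syce1 had 4967, 3719 and 4827 in knockout ovaries and 6104, 5229 and 7309.9 in control ovaries. All 3 E14.5 knockout arrays of Syce1 were below all 3 E14.5 controls, and at E16.5 the genotypes overlapped. For Syce1 the log2 change between the stages was -1.74 ± 0.20 in knockouts (limma adjusted p = 9.18e-07) and -2.32 ± 0.20 in controls (adjusted p = 2.52e-08). Syce2 had 5022 ± 1359 in E16.5 knockouts and 4704 ± 1212 in E16.5 controls (SD, n = 4 each), and 14814 ± 1761 in E14.5 knockouts and 16343 ± 1415 in E14.5 controls (SD, n = 3 each). For Syce2 the log2 change between the stages was -1.59 ± 0.19 in knockouts (limma adjusted p = 1.38e-06) and -1.82 ± 0.19 in controls (adjusted p = 2.25e-07). 

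Syce3 had signals of 3835, 5409, 4395 and 6208 in E16.5 knockout ovaries and 4183, 3083, 4771 and 5930.3 in E16.5 control ovaries. At E14.5, Syce3 had 4964, 4896 and 1855 in knockout ovaries and 2163, 2359 and 3511 in control ovaries. Syce3 was higher at E16.5 in most arrays, and at E14.5 its knockout replicates 1 and 2 were above all controls and replicate 3 below them. For Syce3 the log2 change between the stages was 0.45 ± 0.29 in knockouts (limma adjusted p = 0.191) and 0.74 ± 0.29 in controls (adjusted p = 0.0356). The control call of Syce3 was lost without E14.5 control replicate 1 or 2 or E16.5 control replicate 1, 3 or 4, with log2 changes of 0.59 to 0.76 and adjusted p of 0.0521 to 0.136, and with median centring the control change was 0.39 (limma adjusted p = 0.238). Under quantile normalization the knockout change of Syce3 was 0.67 (limma adjusted p = 0.0475). Tex12 had signals of 2448, 2554, 2509 and 3465 in E16.5 knockout ovaries and 2408, 2495, 2189 and 3147 in E16.5 control ovaries. At E14.5, Tex12 had 12482, 8547 and 11018 in knockout ovaries and 12078, 11701 and 13359 in control ovaries. Tex12, a binding partner of SYCE2, separated the stages without overlap, and replicate 4 was its brightest E16.5 array in each genotype. For Tex12 the log2 change between the stages was -1.95 ± 0.15 in knockouts (limma adjusted p = 8.58e-09) and -2.28 ± 0.15 in controls (adjusted p = 1.01e-09). Hormad1 and Hormad2 encode axis proteins that mark unsynapsed chromosomes, and TRIP13 is the ATPase that strips them off once synapsis is made. Hormad1 had signals of 2082, 1921, 2284 and 2210.3 in E16.5 knockout ovaries and 1774, 1898, 1676 and 2019.7 in E16.5 control ovaries. At E14.5, Hormad1 had 5826, 3123 and 4621 in knockout ovaries and 6064, 5525 and 7611 in control ovaries. At E14.5 Hormad1 was below the controls in knockout replicates 2 and 3 and within their range in replicate 1. For Hormad1 the log2 change between the stages was -1.04 ± 0.16 in knockouts (limma adjusted p = 3.20e-05) and -1.78 ± 0.16 in controls (adjusted p = 5.88e-08). Hormad2 had signals of 188, 100.1, 128 and 252 in E16.5 knockout ovaries and 88.2, 85.9, 74.2 and 186 in E16.5 control ovaries. At E14.5, Hormad2 had 440.1, 309 and 409 in knockout ovaries and 527, 469 and 555 in control ovaries. For Hormad2 all E14.5 knockout arrays were below all E14.5 controls, while at E16.5 control replicate 4 lay among the knockout arrays and the other controls below them. For Hormad2 the log2 change between the stages was -1.20 ± 0.28 in knockouts (limma adjusted p = 0.00154) and -2.17 ± 0.28 in controls (adjusted p = 3.70e-06). Trip13 had signals of 2017, 2121, 1749 and 2134 in E16.5 knockout ovaries and 2150.5, 2069, 2353 and 2179 in E16.5 control ovaries. At E14.5, Trip13 had 1431, 1426 and 1728 in knockout ovaries and 1982, 1610.0 and 1665 in control ovaries. Trip13 was higher at E16.5 without overlap in either genotype. For Trip13 the log2 change between the stages was 0.39 ± 0.11 in knockouts (limma adjusted p = 0.00711) and 0.32 ± 0.11 in controls (adjusted p = 0.0206). A second Trip13 probe set gave 0.89 ± 0.16 (limma adjusted p = 0.000154 over all probe sets) in knockouts and 1.014 ± 0.16 (limma adjusted p = 3.37e-05 over all probe sets) in controls, and another, too dim for the filter, -0.32 ± 0.26 (limma adjusted p = 0.333 over all probe sets) in knockouts and -0.15 ± 0.26 (limma adjusted p = 0.653 over all probe sets) in controls. The Trip13 rise depended on the scaling: with median centring the change was 0.06 (limma adjusted p = 0.692) in knockouts and -0.0199 (limma adjusted p = 0.898) in controls. It was also lost in controls without E14.5 control replicate 2 or 3 or E16.5 control replicate 3, with log2 changes of 0.26 to 0.29 and adjusted p of 0.0596 to 0.0949.

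**Figure D2:**
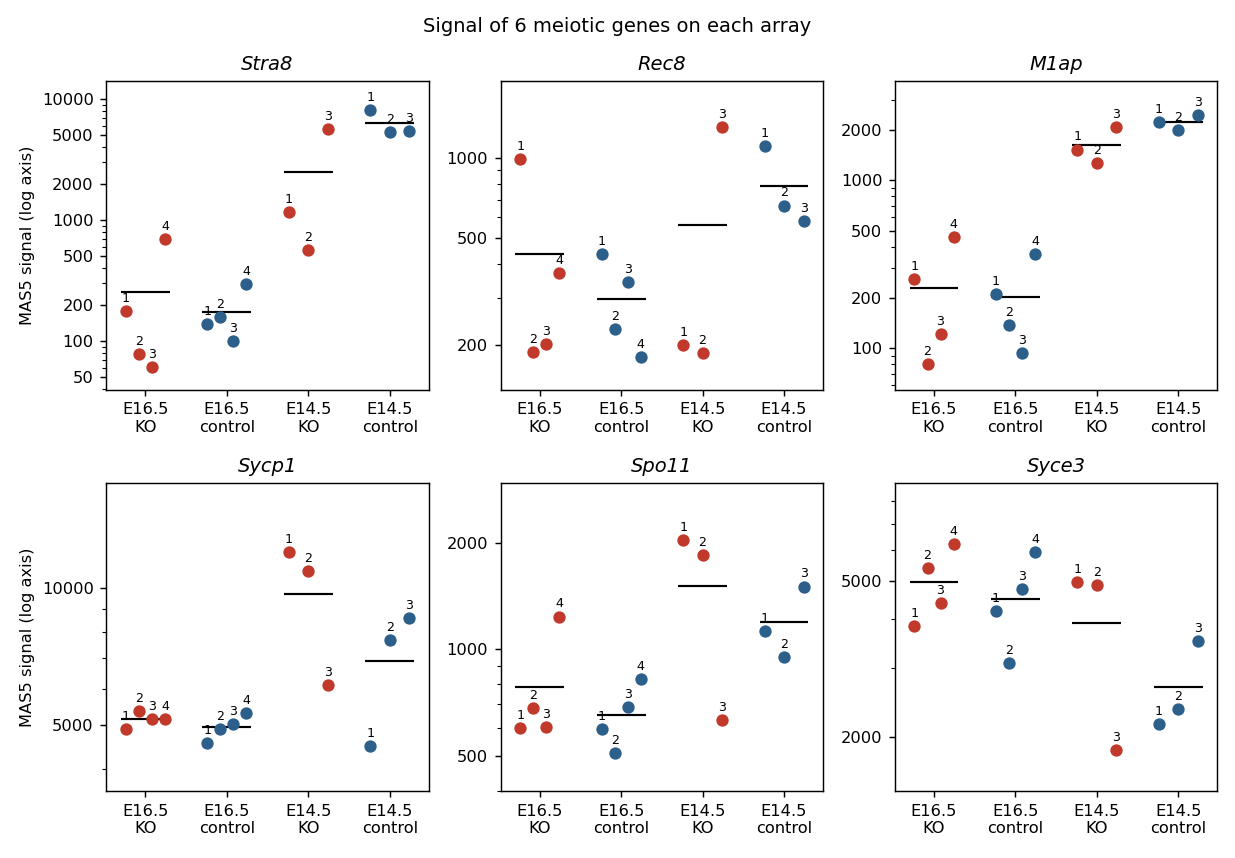
Signal of Stra8, Rec8, M1ap, Sycp1, Spo11 and Syce3 in each of the 14 arrays on a log axis, by group (E16.5 knockout, E16.5 control, E14.5 knockout, E14.5 control); numbers are replicates and bars are group means. E14.5 knockout replicates 1 and 2 stand apart from replicate 3 in these genes, below the controls for Stra8, Rec8 and M1ap and above them for Sycp1, Spo11 and Syce3. All are among the members for which this pair was the lowest or the highest of the E14.5 arrays.

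Of the 4 genes grouped under double-strand break formation, 3 fell in knockouts and 4 in controls. SPO11 is the enzyme that makes the breaks. Spo11 had signals of 600.4, 682, 603 and 1238 in E16.5 knockout ovaries and 597, 511, 689 and 822 in E16.5 control ovaries. At E14.5, Spo11 had 2040.0, 1846 and 633 in knockout ovaries and 1125, 949.6 and 1504 in control ovaries. E14.5 knockout replicate 3 of Spo11 lay within the E16.5 range, while the other pair was above all controls. For Spo11 the log2 change between the stages was -0.83 ± 0.33 in knockouts (limma adjusted p = 0.0361) and -0.85 ± 0.33 in controls (adjusted p = 0.0318). The Spo11 call rested on single arrays: it was lost in knockouts without E14.5 knockout replicate 1 or 2 or E16.5 knockout replicate 1, 2 or 3, with log2 changes of -0.79 to -0.53 and adjusted p of 0.0688 to 0.211, and in controls without E14.5 control replicate 1 or 3 or E16.5 control replicate 1 or 2, with log2 changes of -0.87 to -0.67 and adjusted p of 0.0614 to 0.135. Mei1 is needed for break formation. Mei1 had signals of 245, 334, 308 and 478 in E16.5 knockout ovaries and 243, 208, 246 and 443 in E16.5 control ovaries. At E14.5, Mei1 had 848, 824 and 603 in knockout ovaries and 621, 781 and 841 in control ovaries. Mei1 separated the stages without overlap. For Mei1 the log2 change between the stages was -1.14 ± 0.24 in knockouts (limma adjusted p = 0.000517) and -1.39 ± 0.24 in controls (adjusted p = 6.67e-05). PRDM9 is the histone methyltransferase that sets where breaks fall. Prdm9 had signals of 296, 399, 277 and 718 in E16.5 knockout ovaries and 400.1, 411, 345 and 857 in E16.5 control ovaries. At E14.5, Prdm9 had 620.0, 426 and 787 in knockout ovaries and 843, 893 and 980.2 in control ovaries. Replicate 4 was the brightest E16.5 array of Prdm9 in each genotype, and at E14.5 all knockout arrays were below all controls. For Prdm9 the log2 change between the stages was -0.58 ± 0.31 in knockouts (limma adjusted p = 0.117) and -0.92 ± 0.31 in controls (adjusted p = 0.0152). Without E16.5 knockout replicate 4 the knockout change of Prdm9 was -0.86 (limma adjusted p = 0.0132), and without E14.5 control replicate 3 the control change was -0.86 (limma adjusted p = 0.0514). With median centring the knockout change was -0.90 (limma adjusted p = 0.0143), and with quantile normalization -0.80 (limma adjusted p = 0.0402). M1ap, a meiosis gene needed for making sperm in mice, was placed in this group by the list used, and a part in making breaks is not implied. M1ap had signals of 258, 80.4, 121 and 456 in E16.5 knockout ovaries and 209.6, 138, 92.9 and 362 in E16.5 control ovaries. At E14.5, M1ap had 1523, 1261 and 2063 in knockout ovaries and 2219.9, 1979 and 2433 in control ovaries. Every E14.5 array of M1ap was brighter than every E16.5 array, and E14.5 knockout replicates 1 and 2 were below all E14.5 controls. For M1ap the log2 change between the stages was -2.98 ± 0.44 in knockouts (limma adjusted p = 1.51e-05) and -3.51 ± 0.44 in controls (adjusted p = 1.97e-06). 

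Among the 9 measured recombination genes, 6 fell and 3 rose in each genotype. Dmc1 encodes the meiotic strand-exchange recombinase. Dmc1 had signals of 663, 912, 612 and 1417 in E16.5 knockout ovaries and 876, 663, 521 and 1356 in E16.5 control ovaries. At E14.5, Dmc1 had 3713, 3166 and 2411 in knockout ovaries and 3472, 3153 and 3794 in control ovaries. Dmc1 did not overlap between stages. For Dmc1 the log2 change between the stages was -1.82 ± 0.28 in knockouts (limma adjusted p = 2.87e-05) and -2.09 ± 0.28 in controls (adjusted p = 5.37e-06). The second Dmc1 probe set gave -2.19 ± 0.28 (limma adjusted p = 2.75e-06 over all probe sets) in knockouts and -2.81 ± 0.28 (limma adjusted p = 1.04e-07 over all probe sets) in controls. PSMC3IP (HOP2) and MND1 form the dimer that helps DMC1 invade the homolog, and both of their genes rose. Psmc3ip had signals of 950.1, 1423, 1080.0 and 1165 in E16.5 knockout ovaries and 1326, 1151, 1359 and 1657 in E16.5 control ovaries. At E14.5, Psmc3ip had 834, 785 and 731 in knockout ovaries and 763, 711 and 775 in control ovaries. All E16.5 arrays of Psmc3ip were above all E14.5 arrays. For Psmc3ip the log2 change between the stages was 0.54 ± 0.14 in knockouts (limma adjusted p = 0.00355) and 0.85 ± 0.14 in controls (adjusted p = 5.55e-05). Its second probe set gave 1.30 ± 0.14 (limma adjusted p = 1.90e-07 over all probe sets) in knockouts and 1.52 ± 0.14 (limma adjusted p = 1.96e-08 over all probe sets) in controls, and with median centring the knockout change was 0.21 (limma adjusted p = 0.263). Mnd1 had signals of 487, 731, 592 and 505 in E16.5 knockout ovaries and 576, 527, 759.9 and 618 in E16.5 control ovaries. At E14.5, Mnd1 had 138, 167 and 282 in knockout ovaries and 409, 213 and 266 in control ovaries. Mnd1 was above its E14.5 level in every E16.5 array, and E14.5 knockout replicates 1 and 2 were its dimmest arrays. For Mnd1 the log2 change between the stages was 1.53 ± 0.24 in knockouts (limma adjusted p = 2.59e-05) and 1.06 ± 0.24 in controls (adjusted p = 0.000762). MLH3 is the endonuclease subunit of crossover resolution in late prophase. Mlh3 had signals of 983, 1321, 1138 and 1078 in E16.5 knockout ovaries and 1042, 998, 1199.9 and 997 in E16.5 control ovaries. At E14.5, Mlh3 had 649.7, 591 and 453 in knockout ovaries and 482, 498 and 468 in control ovaries. Mlh3 also rose without overlap, and at E14.5 knockout replicates 1 and 2 were its brightest arrays. For Mlh3 the log2 change between the stages was 0.99 ± 0.14 in knockouts (limma adjusted p = 9.55e-06) and 1.10 ± 0.14 in controls (adjusted p = 2.27e-06). 

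TEX11 and TEX15 are recombination proteins best known from the mouse testis. Tex11 had signals of 609, 616, 577 and 786 in E16.5 knockout ovaries and 412, 496, 559.6 and 664 in E16.5 control ovaries. At E14.5, Tex11 had 2669.7, 1869.9 and 2127 in knockout ovaries and 2019, 1814 and 2736 in control ovaries. Tex11 fell without overlap in both genotypes, and at E16.5 control replicate 4 was the only control within the knockout range. For Tex11 the log2 change between the stages was -1.75 ± 0.18 in knockouts (limma adjusted p = 2.37e-07) and -2.005 ± 0.18 in controls (adjusted p = 3.81e-08). Tex15 had signals of 3723, 4778, 4022 and 4667 in E16.5 knockout ovaries and 3517, 3680.1, 3662 and 3009 in E16.5 control ovaries. At E14.5, Tex15 had 14065, 8581 and 9350.4 in knockout ovaries and 14503, 11802 and 13517 in control ovaries. At E16.5 every knockout array of Tex15 was above every control, while at E14.5 knockout replicate 1 lay within the control range and the others below it. For Tex15 the log2 change between the stages was -1.28 ± 0.15 in knockouts (limma adjusted p = 9.85e-07) and -1.93 ± 0.15 in controls (adjusted p = 6.30e-09). Brca2, which loads recombinases onto broken ends, and the crossover-promoting pair Msh4 and Msh5 also fell. In knockouts their log2 changes were -0.60 ± 0.17, -1.26 ± 0.19 and -1.35 ± 0.34, and in controls -0.70 ± 0.17, -1.24 ± 0.19 and -1.48 ± 0.34 (limma adjusted p at most 0.00453). The second Msh5 probe set gave -0.67 ± 0.23 (limma adjusted p = 0.0218 over all probe sets) in knockouts and -0.76 ± 0.23 (limma adjusted p = 0.0103 over all probe sets) in controls. Mns1, which encodes a protein of meiotic cells and of motile cilia, stands outside these roles. Mns1 had signals of 776, 535, 462 and 672 in E16.5 knockout ovaries and 773, 687, 509.5 and 639.9 in E16.5 control ovaries. At E14.5, Mns1 had 389, 377 and 353 in knockout ovaries and 397, 424 and 355 in control ovaries. It was higher in every E16.5 array than in any E14.5 array. For Mns1 the log2 change between the stages was 0.66 ± 0.17 in knockouts (limma adjusted p = 0.00312) and 0.70 ± 0.17 in controls (adjusted p = 0.00191). With median centring the change of Mns1 was 0.34 (limma adjusted p = 0.0912) in knockouts and 0.36 (limma adjusted p = 0.0702) in controls, and in knockouts it was 0.41 (limma adjusted p = 0.0529) with quantile normalization and 0.40 (limma adjusted p = 0.0566) with E16.5 knockout arrays 1 and 4 left out. In the fit without a filter, from which the second probe sets are given, 25 of 35 member probe sets were lower and 8 higher at E16.5 in controls, where 24.1% of all 45037 probe sets were lower and 28.4% higher.

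Knockout and control ovaries were compared at each stage to ask how the meiotic genes differ between the genotypes. At E14.5 no member passed (limma, 0 of 30), where 0.0403% of all genes did, 5 of 12406. At an unadjusted p under 0.05 there were 6 members and 1061 genes in all, and the smallest adjusted p of a member was 0.404. Of the 30 members 20 had a negative and 10 a positive log2 difference, with a median of -0.16 against 0.03 for all genes. That median was -0.27 without knockout replicate 1, -0.08 without knockout replicate 2 or 3, and -0.10 without control replicate 3. In Syce1, Hormad2 and Prdm9 all 3 knockout arrays were below all 3 controls, where 4.9% of all genes did so, and in 0 members were they all above, where 7.84% of all genes were. Over all probe sets without a filter 0 of the 35 passed, where 0.0333% did. Of the 16 tested general germ cell markers, 15 had a negative and 1 a positive log2 difference at E14.5. Their median was -0.21, below that of the members, and 0 of them passed (limma).

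The entry genes were below 0 in all 3 cases at E14.5. Stra8, whose array values are given above, had a log2 difference of -1.98 ± 0.73 (limma adjusted p = 0.432), with low signals in knockout replicates 1 and 2 and not in replicate 3. Without knockout replicate 3 the difference of Stra8 was -2.90 (limma adjusted p = 0.0388), and over all alternatives it ran from -2.90 to -1.26 with adjusted p of 0.0388 to 0.99972. Meioc had -0.25 ± 0.17 and Ythdc2 -0.26 ± 0.18. Among the cohesin genes Rec8 had -0.998 ± 0.62, Smc1b had -0.18 ± 0.19 and Stag3 -0.10 ± 0.22. The Rec8 difference was -1.89 without knockout replicate 3 (limma adjusted p = 0.0776), -0.53 without replicate 2 and -0.58 without replicate 1. None of these passed.

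In the synaptonemal and axis group the smallest p at E14.5 was that of Hormad1, with a log2 difference of -0.53 ± 0.17 (limma adjusted p = 0.404). Syce1 had -0.46 ± 0.21 and Sycp1 had 0.48 ± 0.22, in opposite directions (limma adjusted p = 0.564 for each). Hormad2 had -0.42 ± 0.30, Syce3 0.44 ± 0.31, Tex12 -0.23 ± 0.16 and Trip13 -0.20 ± 0.12. Sycp2, Sycp3 and Syce2 had -0.05 ± 0.21, 0.12 ± 0.14 and -0.14 ± 0.20. In the break-formation group, Prdm9 had -0.59 ± 0.33 and M1ap -0.47 ± 0.47, while Spo11 had 0.19 ± 0.35 and Mei1 0.02 ± 0.25. Of the recombination genes, Mnd1 had -0.57 ± 0.25 (limma adjusted p = 0.538) and Tex15 -0.34 ± 0.16 (adjusted p = 0.561). The other 7 recombination genes lay between -0.18 (Dmc1) and 0.20 (Mlh3), and Mns1 had -0.07 ± 0.19.

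The 3 E14.5 knockout arrays did not behave alike. Replicates 1 and 2 were the lowest pair of the 6 E14.5 arrays for 6 members (M1ap, Mnd1, Prdm9, Rec8, Stra8 and Trip13) and the highest pair for 6 others (Mlh3, Msh4, Psmc3ip, Spo11, Syce3 and Sycp1). Knockout replicate 2 was the lowest array for 14 members, knockout replicate 3 for 9, and knockout replicate 1 was the highest for 10. Control replicate 3 was the highest for 14. These ranks were counted for the members only, so whether they are particular to the members was not tested. The same arrays differed in markers of early, pluripotent-like germ cells, of which 14 of 14 have a probe set and 8 passed the filter. The summed signal of that list was 1727, 1256 and 9099 in knockouts and 12539.5, 4897 and 5695 in controls. Sox2, a pluripotency factor of early germ cells, had 2.54, 28.4 and 1023 in knockouts and 1216, 451 and 446 in controls, so the low values were in knockout replicates 1 and 2. Tdgf1 was at or below 10.9 in all E14.5 arrays. All 8 tested markers had a negative difference at E14.5, with a median of -1.39, and none passed (limma).

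General germ cell markers, 16 of 17 with a probe set, summed to 43570.5, 34908 and 49715 in E14.5 knockouts and 52238, 47062 and 55798 in E14.5 controls, so knockout replicate 2 was the lowest there too. Many of these markers also change between the stages, as given below. Embryonic red cell markers, 5 of 7 with a probe set, summed to 25079, 18993 and 42254 in knockouts and 43209.5, 32696 and 35618 in controls. The Gapdh 3′ minus 5′ difference was -0.37, -0.29 and -0.31 in knockouts and -0.06, -0.42 and -0.39 in controls (log2), which does not separate knockout replicates 1 and 2 from replicate 3. The part of these measures in the member differences was not tested. 1 fit with the germ cell markers and 1 with the Gapdh difference as a covariate each called 0 members. The fit without covariates also called 0, so these counts cannot show that part. The member median was -0.149 with the germ cell markers and -0.151 with the Gapdh difference, against -0.164 without covariates.

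**Figure D3:**
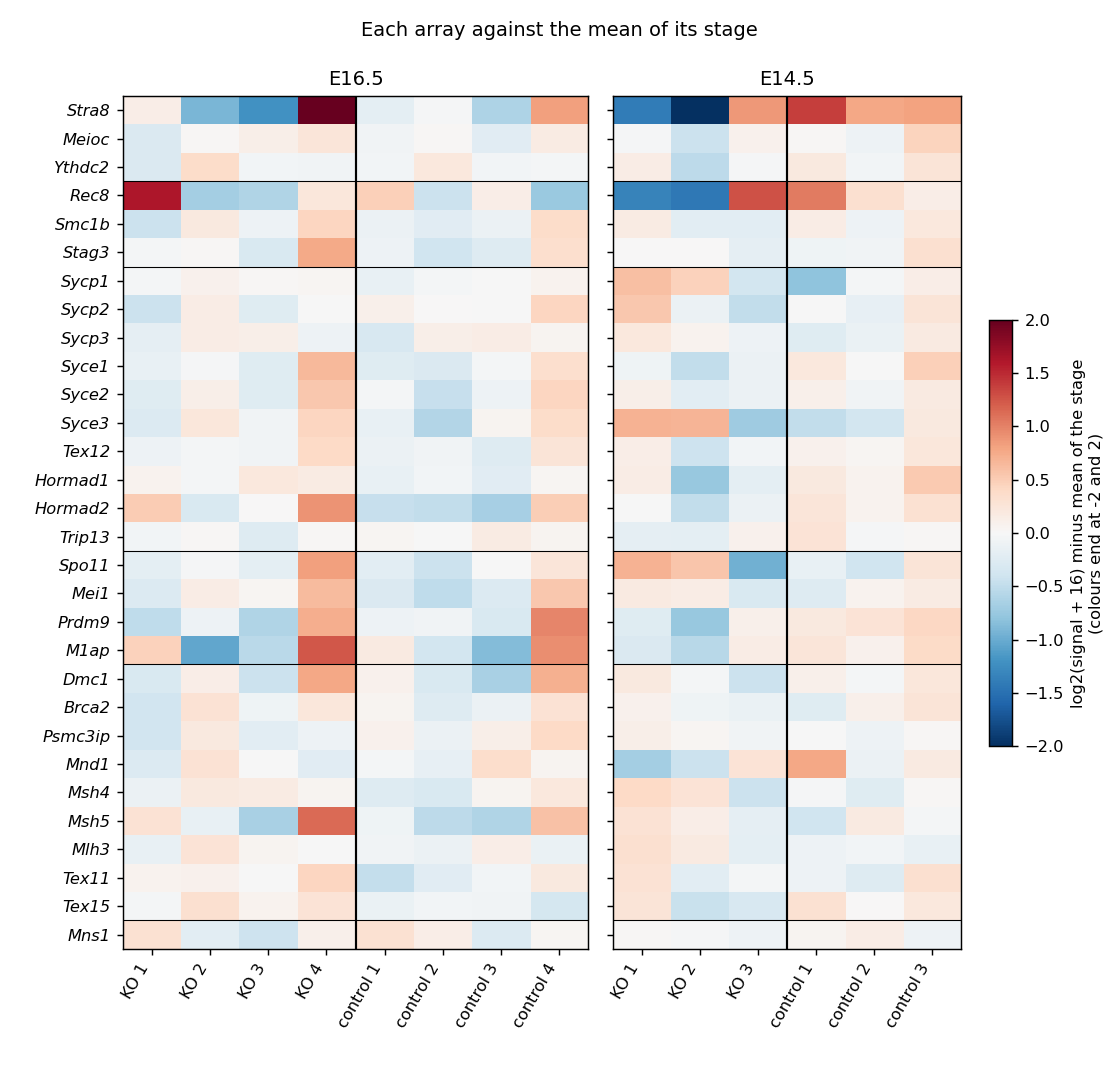
Log2(signal + 16) of the 30 members in each array, minus the mean of the arrays of the same stage, with colours ending at -2 and 2; E16.5 arrays stand left of E14.5 arrays and knockouts left of controls. At E14.5 knockout replicates 1 and 2 share a pattern of low Stra8, Rec8 and M1ap beside high Sycp1, Spo11 and Syce3, and at E16.5 knockout replicate 4 is high for many members.

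At E16.5 again no member passed (limma, 0 of 30), where 1.42% of all genes did, 176 of 12406. An unadjusted p under 0.05 was found for 2 members and 2266 genes, and the smallest adjusted p of a member was 0.246. There were 22 positive and 8 negative log2 differences, with a median of 0.09 against 0.05 for all genes. Leaving out knockout replicate 4 took the median to -0.0194 with 18 of 30 negative, and leaving out control replicate 4 took it to 0.22 with 6 negative. It was 0.0395 without control replicate 2, 0.0556 without control replicate 3, and 0.15 without knockout replicate 1 or 3. In an alternative chosen after seeing the data, without knockout arrays 1 and 4, it was 0.0297 with 15 negative. In 1 member, Tex15, all 4 knockout arrays were above all 4 controls, where 6.22% of all genes were, and in 0 members were they all below, where 4.22% were. Over all probe sets without a filter 0 of the 35 passed, where 0.473% did.

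Tex15 had a log2 difference of 0.31 ± 0.14 at E16.5 (limma adjusted p = 0.246), and Hormad2 had 0.56 ± 0.26 (adjusted p = 0.272). Stra8 had 0.01 ± 0.63, which was -0.66 without knockout replicate 4, its brightest E16.5 array, and ran from -1.06 to 0.41 over the alternatives, with the sign changed in 10 of 23. Meioc had 0.05 ± 0.15 and Ythdc2 -0.03 ± 0.15. The cohesin genes Rec8, Smc1b and Stag3 had 0.28 ± 0.54, 0.04 ± 0.16 and 0.22 ± 0.19. In the synaptonemal and axis group Hormad1 had 0.20 ± 0.15, Sycp2 -0.26 ± 0.18 and Trip13 -0.13 ± 0.11, and the others besides Hormad2 lay between -0.0038 (Sycp3) and 0.16 (Syce3). Prdm9 had -0.25 ± 0.29, Mei1 0.27 ± 0.22, Spo11 0.20 ± 0.30 and M1ap 0.06 ± 0.40. Of the recombination genes, Psmc3ip had -0.25 ± 0.13 and Tex11 0.28 ± 0.16, and the others besides Tex15 lay between -0.10 (Mnd1) and 0.31 (Msh5). Mns1 had -0.10 ± 0.16.

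Knockout replicate 4 was the highest of the 8 E16.5 arrays for 15 of the 30 members and the lowest for 0, and control replicate 4 was the highest for 5. These ranks too were counted for the members only. The same arrays were high in embryonic red cell markers, whose summed signal was 1994, 1426, 1683 and 5736 in knockouts and 1803, 1928, 1015 and 3042 in controls. The bioB hybridization control had 10942, 5299.8, 4553 and 17217 in knockouts and 3838, 3919, 4072 and 4692 in controls, with knockout replicates 1 and 4 far above the others. The Gapdh 3′ minus 5′ difference was 0.94 to 1.63 in knockouts and 1.67 to 1.82 in controls (log2). General germ cell markers summed to 18359, 27477, 23717 and 22548 in knockouts and 17044, 21652, 27408 and 21176 in controls. The part of red cell content and of the bioB signal in the member values was not tested. Fits with the germ cell markers or the Gapdh difference as a covariate called 0 members, as did the fit without covariates. These counts therefore cannot show the part of either. The member median was 0.0928 with the germ cell markers and 0.127 with the Gapdh difference, against 0.0871 without covariates.

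**Figure D4:**
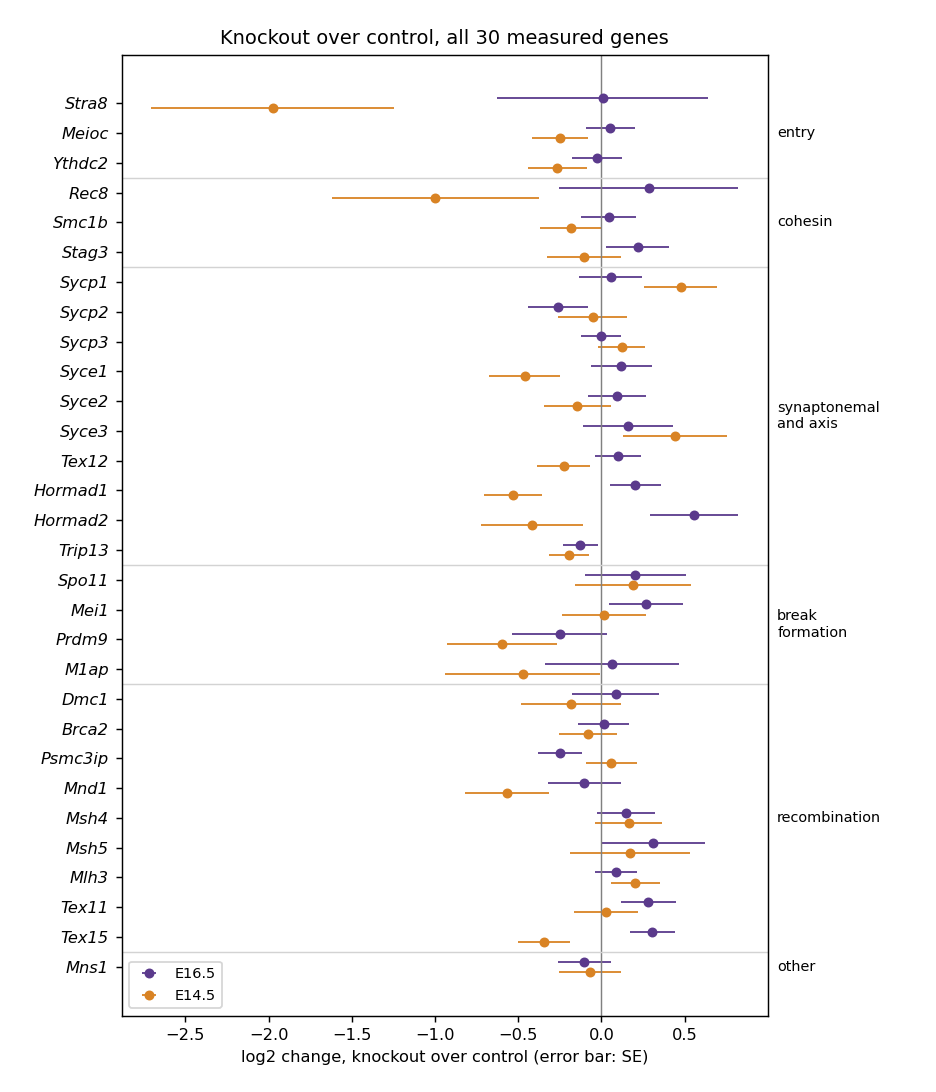
Log2 difference of signal, knockout against control, for the 30 measured members grouped by role, at E16.5 and at E14.5; points are limma estimates and bars are standard errors. No member passed at either stage, and Stra8 and Rec8 at E14.5 have the largest negative estimates and wide errors.

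The knockout difference at E16.5 was also set against that at E14.5. No member and no gene passed this test (limma, 0 of 30 and 0% of 12406), with 3 members and 1105 genes at an unadjusted p under 0.05, and the smallest adjusted p of a member was 0.500. The difference was positive for 22 members and negative for 8, with a median of 0.24 against 0.02 for all genes. This median was 0.0778 without E16.5 knockout replicate 4, 0.376 without E16.5 control replicate 4 and 0.163 without E14.5 knockout replicate 2. Hormad1 had 0.74 ± 0.23 (limma adjusted p = 0.500), Tex15 0.65 ± 0.21 and Hormad2 0.98 ± 0.40. Stra8 had 1.98 ± 0.97 (limma adjusted p = 0.570), and Rec8 1.28 ± 0.82. The opposite end was held by Sycp1 with -0.42 ± 0.29 and Psmc3ip with -0.31 ± 0.20. For the 16 tested general germ cell markers, 15 were positive and 1 negative, with a median of 0.21, and 0 passed (limma). This test uses the arrays of the comparisons above.

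A further list of 46 meiotic gene names, of which 25 were measured, gave the same counts by direction in each genotype between the stages. In knockouts 15 fell and 5 rose, with a median log2 change of -0.86, where 33.8% of all tested genes fell and 27% rose. In controls 15 fell and 5 rose, with a median of -1.006, where 35.9% of all tested genes fell and 28.5% rose. Mei4, a partner of the SPO11 machinery, averaged 14.2 at E16.5 and 833 at E14.5 in controls, a log2 change of -4.81 ± 0.39 (limma adjusted p = 1.16e-08). Sun1, which ties telomeres to the nuclear envelope, had a log2 change of -1.56 ± 0.12, and Terb2, of the telomere-anchoring complex, -2.14 ± 0.21 (limma adjusted p = 6.93e-09 and 1.37e-07). Among the 5 that rose in controls were Ankrd31, a regulator of break formation, with 1.56 ± 0.34, and Ccnb3, a cyclin of the meiotic divisions in oocytes, with 1.15 ± 0.27 (limma adjusted p = 0.000585 and 0.00115). Between genotypes 0 of the 25 passed at E16.5, where 1.42% of all tested genes did, with 14 positive and a median of 0.05. At E14.5 also 0 passed, where 0.0403% did, with 9 positive and a median of -0.17. The smallest p there belonged to Fanci at E16.5 (0.32 ± 0.13, limma adjusted p = 0.214) and Rec114 at E14.5 (-0.90 ± 0.28, limma adjusted p = 0.356).

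Of 12 measured genes of general cohesin and its regulators 8 fell and 2 rose in each genotype. Among all tested genes 33.8% fell and 27% rose in knockouts, and 35.9% fell and 28.5% rose in controls. In controls Esco2, an acetyltransferase of S-phase cohesin, had a log2 change of -2.98 ± 0.24, Stag2 -1.36 ± 0.14 and Esco1 2.51 ± 0.34 (limma adjusted p at most 5.71e-06). Of 16 measured general germ cell markers, 7 fell and 3 rose in knockouts, with a median of -0.34, and 8 fell and 3 rose in controls, with a median of -0.53, beside the shares of all genes given above (33.8% lower and 27% higher in knockouts, 35.9% and 28.5% in controls). Ddx4, the germ cell RNA helicase, averaged 1214 at E16.5 and 7986 at E14.5 in controls, and Dazl, an RNA-binding protein of germ cells, 3199 and 17617 at the same stages. Their log2 changes in controls were -2.69 ± 0.14 and -2.46 ± 0.15 (limma adjusted p = 6.16e-11 and 6.59e-10). Tdrd1, of the piRNA pathway, was higher at E16.5 in controls, with a log2 change of 3.91 ± 0.38 (limma adjusted p = 1.02e-07). Red cell markers, 5 of 7 with a probe set, summed to a signal of 1803, 1928, 1015 and 3042 at E16.5 and 43209.5, 32696 and 35618 at E14.5 in controls. The members of this list went opposite ways. The 3 globins Hbb-y, Hba-x and Hbb-bh1 were lower at E16.5 in both genotypes. Alas2 was higher, with a log2 change of 1.93 in knockouts and 1.77 in controls (limma, adjusted p under 0.05). The part of the germ cell and red cell shares of the ovary in the member falls was not tested.

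Genes of the signals that induce or restrain meiosis were measured for 16 names. At E16.5 Aldh1a3, a retinoic acid synthesising enzyme, was higher in knockouts (0.72 ± 0.16, limma adjusted p = 0.0383), and it was the 1 gene of the list to pass between genotypes at that stage, while 0 passed at E14.5. Its adjusted p was above the threshold when any 1 of 7 of the 8 E16.5 arrays was left out (limma adjusted p between 0.0579 and 0.12, log2 difference between 0.66 and 0.77), all but knockout replicate 2, and also with median centring (limma adjusted p = 0.0626) or without the filter (0.0588). Cyp26b1, which breaks retinoic acid down, had -0.56 ± 0.36 at E16.5 and -0.48 ± 0.42 at E14.5 and did not pass. Among all tested genes 1.42% passed at E16.5 and 0.0403% at E14.5. Of the 16 genes 9 were positive and 7 negative at E16.5, from -0.93 to 0.82, with a median of 0.09. At E14.5, 5 were positive and 11 negative, from -1.61 to 0.51, with a median of -0.21. The list thus held differences in both directions at each stage. Between the stages 6 of 16 fell and 3 rose in knockouts, where 33.8% of all tested genes fell and 27% rose, and 8 fell and 2 rose in controls, where 35.9% fell and 28.5% rose, so the knockout count of falls was near that of all genes. Bmp2, a BMP ligand of pregranulosa cells, had a log2 change of -1.53 ± 0.17 in knockouts and -1.54 ± 0.17 in controls, and Gata4, a transcription factor of gonadal somatic cells, 1.78 ± 0.19 and 1.89 ± 0.19 in the same order (limma adjusted p at most 5.16e-07).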

How the data were processed

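Whole fetal mouse ovaries were measured on 14 Affymetrix arrays, per the labels. What was deposited is an intensity on a linear scale for each probe set, computed by the authors with MAS5 in the Affymetrix Expression Console according to the submitters' processing notes, which name no versions. Each array's trimmed mean, leaving out 2% at each end, was 500, so scaling had removed any global difference in RNA amount. The number of arrays limits the precision.

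Signals were analysed as log2(signal + 16), a scale that shrinks fold changes of dim genes. The platform annotation gave 1 symbol to 34945 of the 45037 non-control probe sets, several to 932 and none to 9160. For each of the 18193 genes, the probe set with the highest mean was used. The 12406 genes tested lay above the 40th percentile over probe sets (a signal of about 62.0). One limma model (limma 3.58.1 under R 4.3.3, data.table at 1.17.8) with 4 groups and a trended eBayes prior used all 14 arrays. Tests were two-sided, with Benjamini-Hochberg adjustment across the 12406 genes and a threshold of 0.05. A second fit held all probe sets without a filter. Every ± beside a log2 change is a standard error. The steps were tested on simulated data.

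The members and gene lists were chosen with earlier results of these data known, so no pattern here is independent support. Values in every array are given for Stra8 and, in each role group, for up to 3 members with the smallest unadjusted p in each knockout comparison and up to 3 with the highest and 3 with the lowest stage change in controls past the threshold. Other members are given by means or ranges. Other lists are given by counts, medians and a few leading members; Foxl2, Amh, Sox9, Aldh1a3, Sun1, Terb2, Ccnb3, Cyp26b1, Bmp2, Gata4, Ddx4, Dazl, Tdrd1, Esco1, Esco2 and Stag2 were named after their values were seen.

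Alternatives changed the pseudocount (1 or 64), scaling, filter, probe set rule, spread model, samples fitted and threshold, left out each array in turn, added covariates, or blocked on the replicate number. Fits without the E16.5 arrays of replicate 4, or without E16.5 knockout arrays 1 and 4, were chosen after seeing the data. Start regions came from RefSeq (GRCm38.p6). Plots used matplotlib 3.10.9 and Python 3.11.15.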

Additional observations from a re-analysis of the deposited data

Results flagged for a closer look

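Over the E16.5 groups of the 30 members, 60 groups of 4 arrays were examined for an array far from the other 3, and 2 were found, where chance gives about 1 in 20. Tex12 had a signal of 3465 in E16.5 knockout replicate 4, above the other 3 knockout arrays at 2448 to 2554. Ythdc2 had a signal of 1454 in E16.5 control replicate 2, above the other 3 control arrays at 1206 to 1222.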

How the results depend on the processing

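In both knockout comparisons and in the difference between stages 0 members passed under each alternative, except that leaving out single arrays at E14.5 gave 0 to 1 members past the threshold, the 1 being Stra8 without knockout replicate 3. Between the stages the count of members past the threshold stayed within 1.5 times the reported one under every alternative. Of the single stage changes in controls 36 of 570 lost their call in the same direction, 1 lost it and turned, and 4 gained one, and in knockouts 14 of 600 lost it and 7 gained it. The 1 that turned was Trip13, at -0.0199 with median centring. Centring or quantile scaling moved the stage median of all genes in controls to -0.428 and -0.212, against -0.087 as reported, so the small rises of Syce3, Trip13 and Mns1 depend on the scaling. Deviations from the group means in same-numbered knockout and control arrays correlated at 0.192, -0.0022, 0.0579 and 0.430 for E16.5 replicates 1 to 4 and at -0.0025, 0.161 and -0.0478 for E14.5 replicates 1 to 3, so some numbers deviated together, E16.5 replicate 4 most, but not every pair did, and the numbers were not taken as a pairing. Using the replicate number as a block gave 0 members in each knockout comparison, 28 members between the stages in knockouts, with Prdm9 gained, and 27 in controls, with Rec8 and Syce3 lost, where 27 and 29 were reported. Arrays limit what can be seen: with 3 against 3 the smallest exact permutation p is 0.1, and a missed threshold does not show equal levels.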
